A study of Arabidopsis thaliana with 12 samples.

Results

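The clade A protein phosphatases 2C (PP2Cs) of Arabidopsis thaliana are 9 genes, ABI1 (AT4G26080), ABI2 (AT5G57050), HAB1 (AT1G72770), HAB2 (AT1G17550), HAI1 (AT5G59220), HAI2 (AT1G07430), HAI3 (AT2G29380), AHG1 (AT5G51760) and PP2CA (AT3G11410). They were taken by their gene identifiers from the 27416 gene rows of a count table, in which all 9 were found. The table holds RNA-seq reads of shoot apices, which here carry the inflorescence meristem and flower buds, in 3 genotypes with 4 libraries each. The genotypes were ap2-12, a mutant of the floral regulator gene APETALA2 (AP2), rAP2-VENUS line #A6, a single line named for AP2 and the yellow fluorescent protein VENUS, and WT, the accession Col-0. Plants of every genotype grew in long days (16 h light, 8 h dark) until harvest, at a stem height of 1 cm. The labels do not give the lesion of ap2-12, the promoter of the rAP2-VENUS construct, what its r stands for, or whether that line also carries an unaltered AP2 gene. They put the number 15 beside the word apices, so a library may be a pool of plants.

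Abscisic acid (ABA) is the plant hormone of seed dormancy, drought and stomatal closure. Clade A PP2Cs are its negative co-receptors. Without ABA they remove phosphate from SnRK2 kinases and hold them inactive. When ABA is present, receptors of the PYR/PYL/RCAR family bind it and then block the phosphatases, and the freed SnRK2 kinases phosphorylate ABF and AREB transcription factors. Several clade A PP2C genes are themselves induced by ABA, which forms a feedback loop. In inflorescences, ABA has been linked to bud dormancy and to the arrest of flowering.

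Library totals ran from 9680133 to 15152704 counts. Levels are given as CPM, a gene's counts relative to its library total after TMM scaling. A gene was called when its edgeR quasi-likelihood test gave a Benjamini-Hochberg adjusted p under 0.05 over the 18807 genes that passed a filter on low counts. Of the 9 genes, 7 passed that filter, and HAI3 and AHG1 did not. AP2 itself had 20.6, 15.6, 17.3 and 15.5 CPM in ap2-12 replicates 1 to 4, 58.1, 46.6, 41.3 and 42.1 CPM in rAP2-VENUS and 92.8, 50.3, 42.3 and 44.4 CPM in WT. The ap2-12 libraries lay below all others, and the log2 fold change against WT was -1.73 ± 0.23 (SE, adjusted p = 0.000302). AP2 reads of rAP2-VENUS may come from the construct, from the AP2 gene or from both, since counts per gene do not separate them. The shoot meristem gene STM and the floral identity genes LFY and AP1 were present in every genotype, as the tissue label has it. CLV3, another shoot apex marker, did not pass the filter.

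The genes differed widely in level in the WT apex. Per kb of coding sequence, PP2CA was highest with 71.4 ± 7.06 CPM, followed by ABI1 with 57.7 ± 6.95, HAB2 with 46.1 ± 2.75, HAI1 with 43.8 ± 13.4 and HAB1 with 30.5 ± 2.4 (SD, n = 4 WT libraries). ABI2 with 10.2 ± 1.84 and HAI2 with 4.46 ± 0.573 CPM per kb formed a lower group, and HAI3 and AHG1 stood at 0.103 ± 0.078 and 0.0434 ± 0.0558. The libraries of PP2CA and ABI1 overlapped, as did those of HAB2 and HAI1, of HAI1 and HAB1, and of HAI3 and AHG1. All other neighbours in this order were separate in WT. In rAP2-VENUS the order of the 7 measured genes was the same as in WT. In ap2-12 it was PP2CA (55.8 ± 2.8 CPM per kb), HAI1 (49.2 ± 9.94), HAB2 (45.6 ± 1.93), ABI1 (38.0 ± 4.66), HAB1 (31.1 ± 0.87), ABI2 (4.40 ± 0.374) and HAI2 (1.51 ± 0.276). By mean, ABI1 stood below HAI1 and HAB2 there and above both in the other genotypes. Libraries of ABI1 and HAB2 were separate in each genotype per kb of coding sequence. Those of ABI1 and HAI1 overlapped in ap2-12 (31.5 to 42.6 against 35.6 to 57.3) and in WT (51.5 to 67.4 against 30.3 to 61.5). Annotated mRNAs exceed the coding sequences by unequal amounts. They measure 2169 against 1305 bases for ABI1, 2642 against 1536 for HAB2 and 1952 against 1242 for HAI1. Reads of untranslated parts may be in the counts. Order and overlap per kb of mRNA were not computed and may differ.

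**Figure D1:**
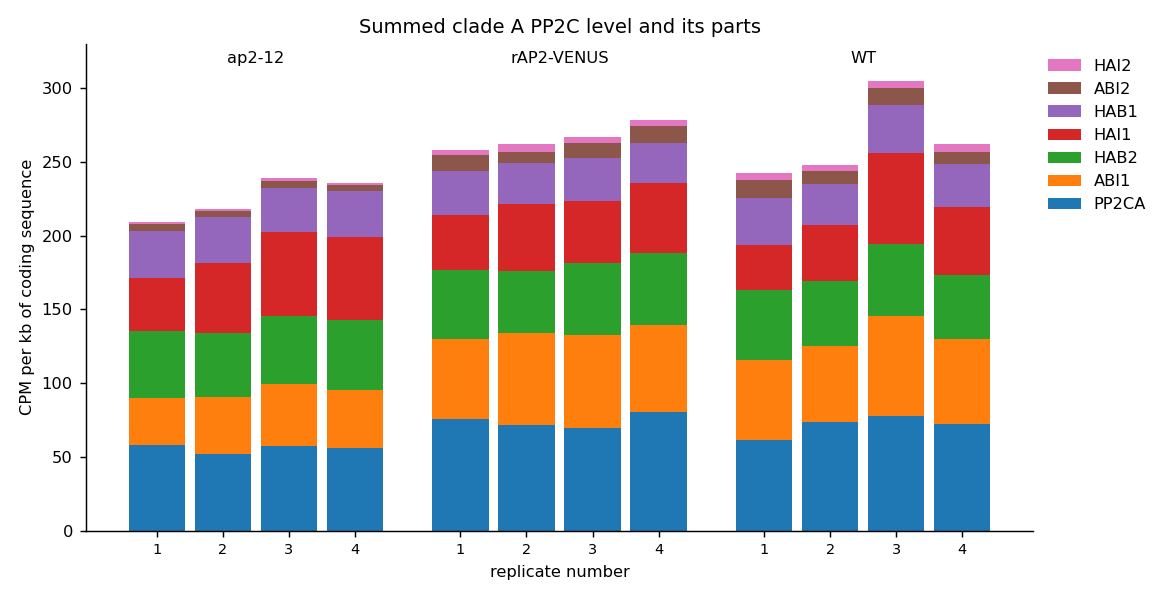
Stacked levels of the 7 measured clade A PP2C genes in each of the 12 libraries, in CPM per kb of coding sequence, with the replicate number on the horizontal axis and a bar per library. The 4 ap2-12 bars end between 210 and 239, the rAP2-VENUS bars between 259 and 278, and the WT bars between 242 and 305.

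In ap2-12 apices 4 of the 7 measured phosphatase genes fell and none rose relative to WT. The 4 were HAI2 (2.96-fold lower), ABI2 (2.3-fold lower), ABI1 (1.52-fold lower) and PP2CA (1.28-fold lower). Of all genes tested, 15.2% were called in this comparison, 5.65% higher and 9.59% lower. The median log2 fold change of the 7 genes was -0.36, and that of all genes tested was 0.0015. HAB1, HAB2 and HAI1 were not called. In bulk tissue, fewer cells of a type and less RNA per cell cannot be told apart.

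HAI2 belongs to the highly ABA-induced PP2Cs, a subgroup with strong induction by ABA and drought. It had 2.45, 1.61, 2.14 and 1.82 CPM in ap2-12 replicates 1 to 4, from 32, 24, 31 and 27 reads. It had 4.68, 6.80, 5.13 and 5.52 CPM in rAP2-VENUS and 5.63, 5.06, 6.22 and 6.83 CPM in WT. Every ap2-12 library lay below every library of the other genotypes, and rAP2-VENUS and WT overlapped. The log2 fold change of ap2-12 against WT was -1.57 ± 0.19 (SE, 95% interval -1.97 to -1.16, adjusted p = 0.000113).

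ABI2 and ABI1 are the close relatives whose dominant mutations make seedlings insensitive to ABA. ABI2 had 6.04, 4.96, 5.87 and 5.54 CPM in ap2-12, 13.5, 9.68, 13.5 and 14.1 CPM in rAP2-VENUS and 15.5, 11.2, 14.3 and 10.7 CPM in WT. The ap2-12 libraries were again lowest without overlap. The log2 fold change against WT was -1.20 ± 0.16 (SE, 95% interval -1.55 to -0.86, adjusted p = 0.000251). ABI1 had 41.1, 50.4, 55.6 and 51.0 CPM in ap2-12, 70.5, 81.0, 82.8 and 77.2 CPM in rAP2-VENUS and 70.8, 67.2, 88.0 and 75.2 CPM in WT. Its highest ap2-12 library, 55.6 CPM, was below the lowest WT library, 67.2 CPM. The log2 fold change against WT was -0.60 ± 0.11 (SE, 95% interval -0.83 to -0.37, adjusted p = 0.00204).

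PP2CA, also called AHG3, acts on SnRK2.6 and on ion channels of guard cells and is a main phosphatase of germinating seeds. It had 70.0, 62.2, 68.5 and 67.2 CPM in ap2-12, 91.2, 86.1, 83.2 and 96.4 CPM in rAP2-VENUS and 73.7, 88.5, 93.5 and 87.1 CPM in WT. The ap2-12 and WT libraries did not overlap, but ap2-12 replicate 1 and WT replicate 1 lay close together. The log2 fold change was -0.36 ± 0.08 (SE, 95% interval -0.53 to -0.18, adjusted p = 0.0107). Without ap2-12 replicate 2 the call was lost, at an adjusted p of 0.0503. Libraries of ap2-12 and WT did not overlap for these 4 genes and overlapped for the other 3, beside 18.6% of all genes tested without overlap.

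**Figure D2:**
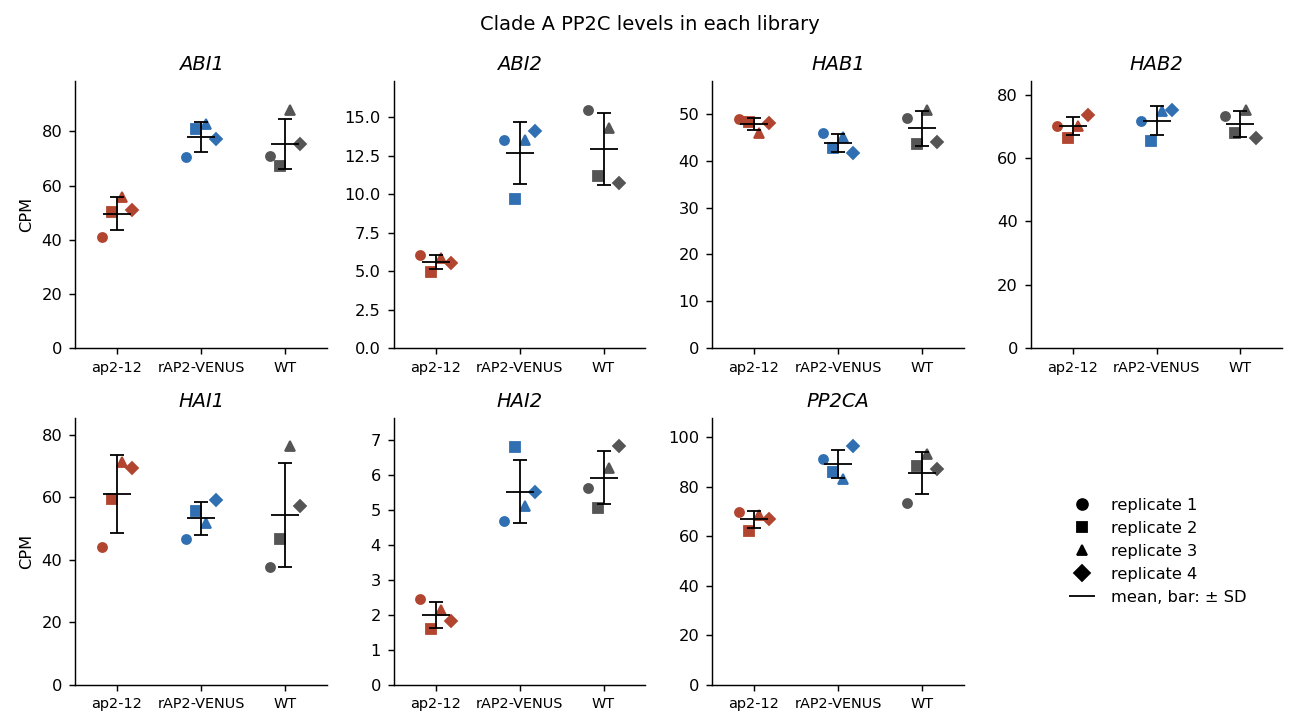
CPM of the 7 measured clade A PP2C genes in each library by genotype, with a symbol per replicate number, the mean as a horizontal line and the SD as a bar (n = 4). For ABI1, ABI2, HAI2 and PP2CA the ap2-12 points lie below all rAP2-VENUS and WT points, and HAI1 spreads from 37.6 to 76.3 CPM within WT.

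The 4 genes that moved together in ap2-12 have different promoters, which are printed here because they carry unequal numbers of the core of the ABA-responsive element (ABRE), the site bound by ABF and AREB factors. Each is the 300 bases before the annotated gene start in the RefSeq genome TAIR10.1, 5′ to 3′ on the strand of the gene, with ACGTG on either strand (read as ACGTG or CACGT) in capitals. The windows are chr1:2282829-2283128, minus strand, for HAI2, chr3:3585851-3586150, minus strand, for PP2CA, chr4:13222377-13222676, minus strand, for ABI1 and chr5:23086822-23087121, plus strand, for ABI2. The deposited counts carry no coordinates, and this genome, released by NCBI as TAIR10.1, served only for these sequences and the gene models.
HAI2: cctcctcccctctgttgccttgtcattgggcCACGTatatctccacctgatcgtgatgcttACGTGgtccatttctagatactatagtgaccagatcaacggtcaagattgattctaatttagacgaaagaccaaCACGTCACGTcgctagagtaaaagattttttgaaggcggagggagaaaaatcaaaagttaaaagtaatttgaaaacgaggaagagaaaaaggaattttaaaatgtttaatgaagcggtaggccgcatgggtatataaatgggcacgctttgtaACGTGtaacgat
PP2CA: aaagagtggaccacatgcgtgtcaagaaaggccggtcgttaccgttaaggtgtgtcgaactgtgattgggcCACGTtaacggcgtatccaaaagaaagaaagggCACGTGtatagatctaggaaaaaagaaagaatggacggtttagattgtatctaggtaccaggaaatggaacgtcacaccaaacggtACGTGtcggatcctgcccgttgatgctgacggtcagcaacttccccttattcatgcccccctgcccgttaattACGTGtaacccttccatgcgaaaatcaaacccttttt
ABI1: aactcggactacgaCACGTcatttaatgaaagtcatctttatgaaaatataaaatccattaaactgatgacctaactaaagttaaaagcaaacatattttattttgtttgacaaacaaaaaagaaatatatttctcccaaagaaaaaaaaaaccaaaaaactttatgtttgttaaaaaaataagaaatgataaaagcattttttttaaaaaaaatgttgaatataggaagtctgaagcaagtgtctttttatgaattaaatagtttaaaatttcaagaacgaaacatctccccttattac
ABI2: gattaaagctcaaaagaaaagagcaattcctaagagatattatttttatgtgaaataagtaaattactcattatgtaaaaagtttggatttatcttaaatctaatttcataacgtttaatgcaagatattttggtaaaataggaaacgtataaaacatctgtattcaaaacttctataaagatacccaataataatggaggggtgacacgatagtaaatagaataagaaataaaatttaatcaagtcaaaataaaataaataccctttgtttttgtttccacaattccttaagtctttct

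The HAI2 window holds 5 matches, beginning 269, 239, 165, 160 and 12 bases before the gene start. The PP2CA window also holds 5, at 229, 196, 195, 110 and 37 bases, of which those at 196 and 195 are the 2 strands of a single CACGTG. The ABI1 window holds 1, at 286 bases, and the ABI2 window 0. No relation between matches and fold changes was tested. Of the genes that were not called, HAB1 has 1 match, HAB2 has 2 and HAI1 has 0, and HAI3 and AHG1 have 2 each. Those of AHG1, at 59 and 58 bases, are again the 2 strands of a single CACGTG. In all, 7 of the 9 windows hold ACGTG, beside 25.6% of 27443 annotated protein-coding genes, and 9.94% of those hold at least 2. CACGTG, the palindrome that contains ACGTG on both strands, is in 2 of 9 windows (PP2CA and AHG1) and in 7.09% of all. TTTGTT, a sequence reported for AP2 binding, is in 5 of 9 windows, those of ABI1, ABI2, HAI1, HAI3 and AHG1, and in 61.4% of all, counted on both strands. A match is a description of these letters and does not show a bound site.

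HAB1 and HAB2 are a pair of close relatives that act redundantly with ABI1 in seeds and leaves. HAB1 averaged 47.8 ± 1.34 CPM in ap2-12, 43.8 ± 1.94 CPM in rAP2-VENUS and 46.9 ± 3.68 CPM in WT (SD, n = 4 each). HAB2 averaged 70.1 ± 2.97 CPM in ap2-12, 71.8 ± 4.55 CPM in rAP2-VENUS and 70.8 ± 4.22 CPM in WT (SD, n = 4 each). All 12 libraries of HAB2 lay between 65.4 and 75.3 CPM. The 95% intervals of the log2 fold change of ap2-12 against WT ran from -0.12 to 0.18 for HAB1 (adjusted p = 0.838) and from -0.16 to 0.14 for HAB2 (adjusted p = 0.915), so a change of the size seen in ABI1 lay outside both.

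HAI1, known also as SAG113 from leaf senescence, is a relative of HAI2. It had 44.2, 59.4, 71.2 and 69.4 CPM in ap2-12, 46.7, 55.7, 51.9 and 59.0 CPM in rAP2-VENUS and 37.6, 46.5, 76.3 and 57.3 CPM in WT. The genotypes overlapped throughout, and replicate 1 was the lowest library of each. The log2 fold change of ap2-12 against WT was 0.16 ± 0.20 (SE, adjusted p = 0.639), and its 95% interval from -0.27 to 0.59 did not reach the fall measured in HAI2. Whether the responses of HAI1 and HAI2 differ was not tested beyond these intervals.

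HAI3, the third of the highly ABA-induced PP2Cs, had 3, 1, 2 and 3 reads in ap2-12, 1, 0, 0 and 0 reads in rAP2-VENUS and 1, 3, 0 and 2 reads in WT. AHG1, a phosphatase of seeds that binds the dormancy protein DOG1, had 1, 1, 2 and 0 reads in ap2-12, 4, 3, 1 and 1 reads in rAP2-VENUS and 0, 0, 2 and 1 reads in WT. All but 1 of these counts lie at or under 3 reads per library, which corresponds to 0.201 to 0.313 CPM across the libraries. Differences between genotypes were not detectable at this depth for either gene. With no filter on low counts neither was called in any comparison, with edgeR adjusted p between 0.113 and 0.909.

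In rAP2-VENUS none of the 7 measured phosphatase genes was called against WT, a comparison in which 0.627% of all genes tested were called. None had an unadjusted edgeR p under 0.05, and DESeq2, limma-voom and an edgeR fit blocked by replicate number called 0 of them as well. The log2 fold changes ran from -0.10 for HAI2 to 0.058 for PP2CA, with a median of -0.024 against 0.00055 for all genes tested. The libraries of the 2 genotypes overlapped for every one of the 7, while those of 5.02% of all genes tested did not. The 95% intervals were narrowest for HAB2 (-0.13 to 0.17) and HAB1 (-0.25 to 0.055) and wider for ABI1 (-0.18 to 0.28), PP2CA (-0.12 to 0.23), ABI2 (-0.35 to 0.30), HAI1 (-0.46 to 0.40) and HAI2 (-0.47 to 0.28). Smaller differences than these could not be detected with 4 libraries a group.

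Set directly against ap2-12, rAP2-VENUS had higher levels of HAI2, ABI2, ABI1 and PP2CA, and the other 3 genes were not called. Of all genes tested, 19.6% were called in this comparison, 11.7% higher and 7.86% lower. HAI2 averaged 5.53 ± 0.914 CPM in rAP2-VENUS and 2.00 ± 0.367 CPM in ap2-12 (SD, n = 4 each). The log2 fold change was 1.47 ± 0.19 (SE, edgeR adjusted p = 0.000128). ABI2 was 2.26-fold higher (log2 1.18 ± 0.16 SE, edgeR adjusted p = 0.000195). ABI1 was 1.57-fold higher (log2 0.65 ± 0.11 SE, edgeR adjusted p = 0.000837) and PP2CA 1.33-fold higher (log2 0.41 ± 0.08 SE, edgeR adjusted p = 0.00322). These 4 genes and HAB1 did not overlap between the genotypes, beside 24.5% of all genes tested. HAB1 was lower in rAP2-VENUS, 41.6 to 45.9 CPM against 45.9 to 49.0 CPM in ap2-12, with the nearest libraries equal as rounded, and was not called (log2 -0.13 ± 0.07 SE, edgeR adjusted p = 0.246). This comparison shares the ap2-12 libraries with the one against WT, and the median log2 fold change of the 7 genes was 0.41, against -0.012 for all genes tested.

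**Figure D3:**
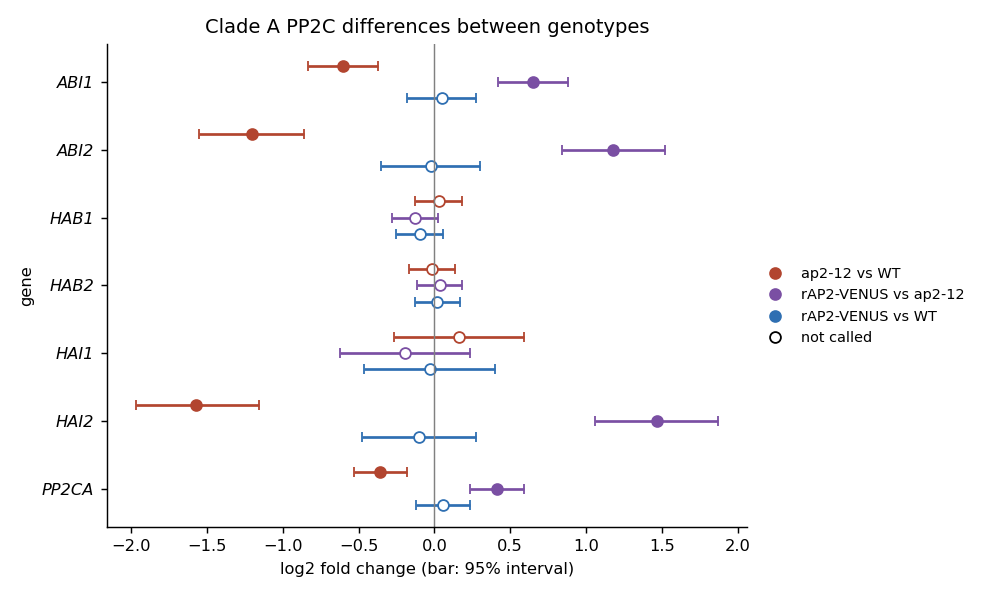
Log2 fold changes of the 7 measured clade A PP2C genes in the 3 comparisons, as points with 95% intervals, filled where the adjusted p was under 0.05. ABI1, ABI2, HAI2 and PP2CA lie left of 0 in ap2-12 vs WT and right of 0 in rAP2-VENUS vs ap2-12, while every interval of rAP2-VENUS vs WT crosses 0.

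The replicate numbers of the labels are shared across genotypes. HAI1 and ABI1, 2 of the 7 measured genes, differed between them, a share near the 29.5% called among all genes tested. HAI1 averaged 42.8, 53.8, 66.5 and 61.9 CPM over the genotypes in replicates numbered 1 to 4 (edgeR adjusted p = 0.0148, 4 numbers). ABI1 averaged 60.8, 66.2, 75.5 and 67.8 CPM over the same numbers (edgeR adjusted p = 0.0421). The 5 other measured genes were not called, with edgeR adjusted p from 0.11 for ABI2 to 0.983 for HAI2. All 12 circadian clock genes of a fixed list were called between replicate numbers. None of them was called between genotypes with edgeR, DESeq2 or limma-voom, and none had an unadjusted edgeR p under 0.05 there. Blocking by replicate number, edgeR called 2, 1 and 2 of the 12 in ap2-12 vs WT, rAP2-VENUS vs WT and rAP2-VENUS vs ap2-12. The block called 5419, 424 and 6215 of all 18807 genes tested in these comparisons. The labels give no hour of harvest, and the part of harvest time in the HAI1 and ABI1 levels was not tested.

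Within a replicate number, ap2-12 was below WT in 4 of 4 pairs for each of the 4 genes that fell. Since ap2-12 and WT libraries did not overlap for these genes, any matching of libraries gives this count, and it adds no support. The numbers were not taken as pairs in this comparison, and the differences only describe how the size of the fall varied. The log2 differences were -0.78, -0.41, -0.66 and -0.56 for ABI1 in replicates 1 to 4 and -1.34, -1.15, -1.27 and -0.94 for ABI2. They were -1.15, -1.57, -1.47 and -1.82 for HAI2, the largest of the 4 genes in every number but the first. PP2CA gave -0.073 in replicate 1 and -0.51, -0.45 and -0.37 in replicates 2, 3 and 4. HAB1, HAB2 and HAI1 had both signs among their pairs. Between rAP2-VENUS and WT, HAB1 was lower in 4 of 4 pairs, by -0.024 to -0.18, and the other 6 genes had both signs.

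**Figure D4:**
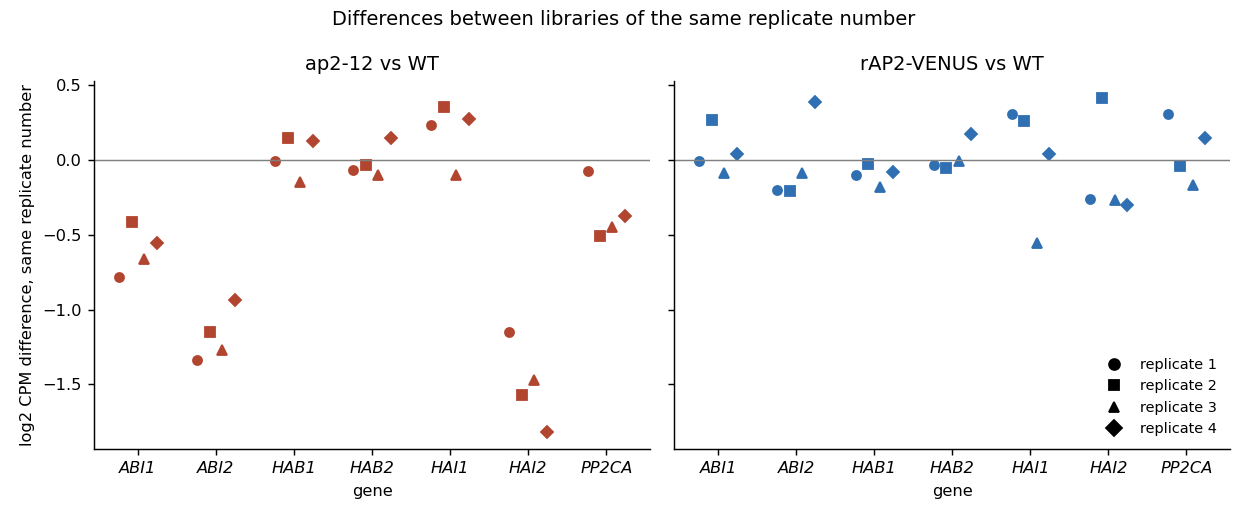
Log2 differences in CPM between libraries of the same replicate number, for ap2-12 vs WT on the left and rAP2-VENUS vs WT on the right, with a symbol per number. All 16 points of ABI1, ABI2, HAI2 and PP2CA lie below 0 on the left, from -0.073 to -1.82. Their signs follow from the lack of overlap between ap2-12 and WT libraries.

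Summed over the clade, expression per kb of coding sequence was 226 ± 14.1 CPM in ap2-12, 267 ± 8.63 CPM in rAP2-VENUS and 264 ± 28.3 CPM in WT (SD, n = 4 each). The highest ap2-12 library, 239, was just below the lowest WT library, 242. ABI1 made up 16.8% of this sum in ap2-12, 22.4% in rAP2-VENUS and 21.8% in WT. ABI2 made up 1.96% in ap2-12, 3.74% in rAP2-VENUS and 3.87% in WT. HAI2 made up 0.672% in ap2-12, 1.56% in rAP2-VENUS and 1.69% in WT. PP2CA held the largest share in each genotype, 24.8% in ap2-12, 27.9% in rAP2-VENUS and 27.1% in WT. HAI1, whose own level was not called different, held 21.6% in ap2-12, 16.1% in rAP2-VENUS and 16.3% in WT. Shares are given without a test, and because they add up to the whole, one gene's share moves when another gene's level does. Sums and shares also rest on coding length, and were not computed per kb of mRNA.

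Upstream of the phosphatases, 1 of 7 measured ABA synthesis genes fell in ap2-12, a share near the 15.2% called among all genes tested. It was NCED3, the rate-limiting dioxygenase of stress-induced ABA synthesis. NCED3 averaged 0.779 ± 0.341 CPM in ap2-12 and 1.87 ± 0.395 CPM in WT (SD, n = 4 each; log2 -1.26 ± 0.30 SE, edgeR adjusted p = 0.0134). In rAP2-VENUS it averaged 0.702 ± 0.0964 CPM, and against WT edgeR gave an adjusted p of 0.0723, and 0.044 once the block was added. Among 5 genes of ABA inactivation and release, CYP707A2 and BGLU18 rose in ap2-12 and CYP707A4 fell. CYP707A2 and CYP707A4 encode ABA 8'-hydroxylases, and BGLU18 releases ABA from its glucose ester. BGLU18 averaged 2146 ± 135 CPM in ap2-12 and 1368 ± 204 CPM in WT (log2 0.65 ± 0.14 SE, edgeR adjusted p = 0.00654). CYP707A4 averaged 2.54 ± 0.702 CPM in ap2-12 and 6.92 ± 1.46 CPM in WT (log2 -1.44 ± 0.23 SE, edgeR adjusted p = 0.000992). CYP707A2 had 28, 21, 19 and 31 reads in ap2-12, 0, 1, 1 and 1 reads in rAP2-VENUS and 4, 2, 5 and 2 reads in WT (ap2-12 vs WT log2 2.73 ± 0.40 SE, edgeR adjusted p = 6e-04).

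Of the ABA receptor genes, whose products block the phosphatases, 4 of 10 measured rose in ap2-12 and none fell, with a median log2 fold change of 0.35. Among all genes tested, 5.65% were called higher in this comparison and 9.59% lower. PYL4 averaged 103 ± 6.57 CPM in ap2-12 and 43.1 ± 4.09 CPM in WT (SD, n = 4 each; log2 1.25 ± 0.11 SE, edgeR adjusted p = 7.51e-06). PYL6 averaged 10.7 ± 2.2 CPM in ap2-12 and 5.84 ± 0.355 CPM in WT (log2 0.87 ± 0.18 SE, edgeR adjusted p = 0.00521). The receptors PYL9 (log2 0.55, edgeR adjusted p = 0.0382) and PYL5 (log2 1.11, edgeR adjusted p = 0.0432) each lost the call in 6 of the 8 fits that left out a single library, where the highest adjusted p were 0.109 and 0.12. Against ap2-12, rAP2-VENUS had lower PYL4 (log2 -1.10), PYL6 (log2 -0.61) and PYL9 (log2 -0.65), 3 of 10, beside 7.86% of all genes tested. PYL6 lost that call in 4 of 8 such fits (highest adjusted p 0.0795).

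Of the SnRK2 kinase family, which includes substrates of these phosphatases, 10 genes were measured in ap2-12, 2 of which fell and 1 rose. The share called among all genes tested was 15.2%. SNRK2.6, also called OST1, is the main ABA-activated kinase of guard cells, and averaged 18.7 ± 1.49 CPM in ap2-12 and 29.5 ± 3.32 CPM in WT (SD, n = 4 each; log2 -0.65 ± 0.09 SE, edgeR adjusted p = 0.000425). SNRK2.7 averaged 0.368 ± 0.11 CPM in ap2-12 and 1.74 ± 0.325 CPM in WT (log2 -2.22 ± 0.32 SE, edgeR adjusted p = 0.000444). SNRK2.5 was higher, at 37.7 ± 3.41 CPM in ap2-12 against 24.1 ± 0.971 CPM in WT (log2 0.65 ± 0.09 SE, edgeR adjusted p = 0.000346). The kinases SNRK2.2 and SNRK2.3, which act with SNRK2.6 in ABA signalling, were not called. All 3 called kinases were called in the opposite direction in rAP2-VENUS vs ap2-12, which shares the ap2-12 libraries.

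Downstream, 1 of 10 measured ABA transcription factor genes and their partners was called in ap2-12, beside 15.2% of all genes tested. It was AFP1, which encodes a protein that binds ABI5, at 1.77 ± 0.268 CPM in ap2-12 and 5.23 ± 0.993 CPM in WT (SD, n = 4 each; log2 -1.55 ± 0.20 SE, edgeR adjusted p = 0.000229). Blocking by replicate number gave 5 of the 10, adding ABF2, which was lower, and ABI5, ABF4 and AREB3, which were higher. The block called 5419 of all 18807 genes tested in this comparison, against 2866 without it. Beside 9.59% of all genes tested lower and 5.65% higher, edgeR called 4 of 14 measured ABA-induced genes lower and none higher. Their median log2 fold change was -0.57. Omissions of a single library gave 2 to 5 calls, and blocking by replicate number gave 6, adding COR15A as lower (adjusted p = 0.00684) and GBF3 as higher (adjusted p = 0.00685). RAB18, a dehydrin gene used as a marker of ABA response, had 0, 0, 1 and 1 reads in ap2-12, 54, 66, 56 and 56 reads in rAP2-VENUS and 17, 55, 48 and 44 reads in WT. The ratio of scaled RAB18 counts in ap2-12 to those in WT was 0.0111 (95% exact interval 0.00133 to 0.0408, counting error only), with an edgeR adjusted p of 4.59e-06. In rAP2-VENUS the RAB18 counts were 130-fold those of ap2-12 (95% exact interval 35.6 to 1080, counting error only). RD22, a dehydration-response gene, averaged 105 ± 2.49 CPM in ap2-12 and 157 ± 17.2 CPM in WT (log2 -0.58 ± 0.10 SE, edgeR adjusted p = 0.00157).

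The homeobox gene HB7 also fell in ap2-12 (log2 -1.17 ± 0.28 SE, edgeR adjusted p = 0.013), but not without ap2-12 replicate 2 (adjusted p = 0.0507). COR6.6, a cold- and ABA-induced gene whose reads may be split uncertainly with its close copy KIN1, was called lower (log2 -0.57 ± 0.17 SE, edgeR adjusted p = 0.0388) and lost the call when any of 6 of the 8 libraries was left out (highest adjusted p 0.114). RD29A, RD26, HB12 and 5 other ABA-induced genes were called neither by edgeR without the block nor with it. In rAP2-VENUS vs ap2-12, 5 of the 14 were higher, RAB18, COR6.6, COR15A, RD22 and HIS1-3, beside 11.7% of all genes tested. GBF3 was lower there, and lost that call in 2 of 8 omissions. In rAP2-VENUS vs WT edgeR called none of the 84 other measured genes of the ABA pathway and of the PP2C lists below. Of these 84, 14 had an unadjusted p under 0.05, DESeq2 called 1, limma-voom 0 and the replicate block 4, namely NCED3, COR6.6, COR15A and HB21. Of all 18807 genes tested, DESeq2 called 340 and the block 424. The share of all genes with an unadjusted p under 0.05 was not computed for any comparison, so the 14 have no background to stand beside.

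**Figure D5:**
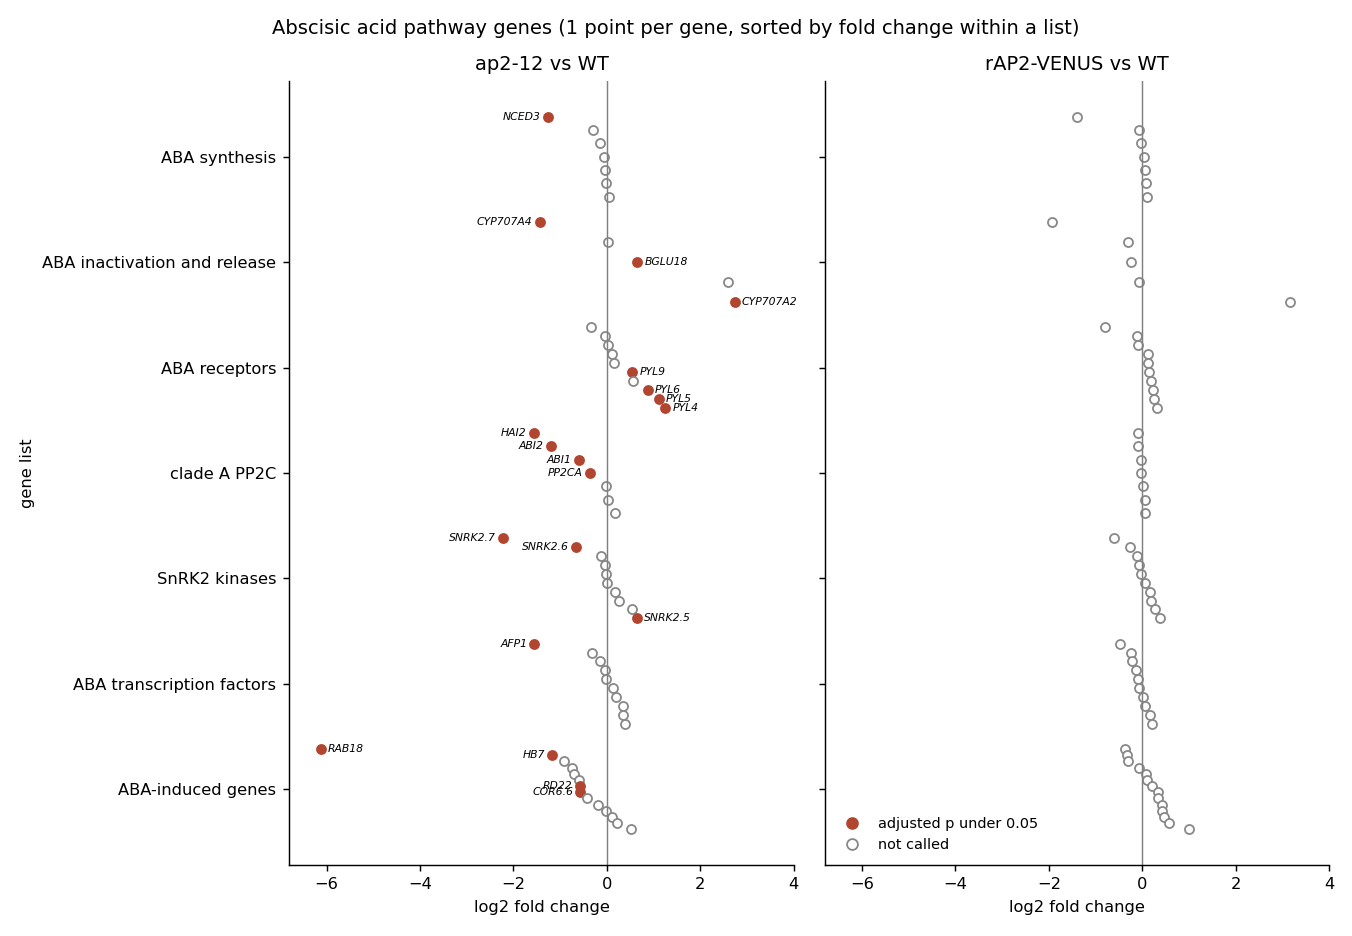
Log2 fold changes of measured ABA pathway genes by list, with a point per gene, for ap2-12 vs WT on the left and rAP2-VENUS vs WT on the right, filled and named where the edgeR adjusted p was under 0.05. On the left the genes called without a replicate block lie below 0 in the clade A PP2C and ABA-induced lists and above 0 in the receptor list, while no point on the right is filled. The RAB18 point rests on 2 reads in ap2-12, so its place depends on the fit.

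Genes of other PP2C clades and of PP2C regulators were set beside clade A, in a comparison in which 15.2% of all genes tested were called. Among regulators of clade A PP2Cs, such as the ubiquitin ligases RGLG1, RGLG5, PUB12 and PUB13 and the protein EAR1, 8 genes were measured. None of the 8 was called by edgeR, DESeq2 or limma-voom, and 1 had an unadjusted edgeR p under 0.05. Of clade B, which acts on MAP kinases, 1 of 3 rose, AP2C3 (log2 1.30 ± 0.36 SE, edgeR adjusted p = 0.0283). Of clade C, which includes POLTERGEIST of the stem cell pathway, 1 of 5 rose, PLL5 (log2 0.30 ± 0.09 SE, edgeR adjusted p = 0.0474). Of clade D, which acts on plasma membrane proton pumps, D1 rose (log2 1.36 ± 0.26 SE, edgeR adjusted p = 0.00333) and D7 fell (log2 -0.56 ± 0.15 SE, edgeR adjusted p = 0.0218) among 9. Blocking by replicate number called 5 of the 9, beside 5419 of all 18807 genes tested. The calls of AP2C3, PLL5 and D7 were lost in 5, 6 and 3 of 8 omissions of a single library. None of HB21, HB40 and HB53, homeobox genes upstream of NCED3 in axillary buds, was called in ap2-12 by edgeR, DESeq2 or limma-voom, 1 had an unadjusted p under 0.05, and the replicate block called HB21 (adjusted p = 0.003).

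Markers of several tissues of the apex moved with genotype alongside the phosphatases. Their calls in ap2-12 vs WT stand beside 5.65% of all genes tested called higher and 9.59% lower. Of 5 stomatal lineage markers 4 fell in ap2-12, MUTE, FAMA, TMM and HT1, and SPCH did not. The summed level of these 5 was 44.0 to 52.9 CPM in ap2-12, 69.7 to 90.7 CPM in rAP2-VENUS and 69.5 to 85.2 CPM in WT. Of 6 xylem markers 5 fell, with sums of 17.8 to 26.0 CPM in ap2-12, 78.1 to 80.5 CPM in rAP2-VENUS and 55.5 to 67.2 CPM in WT. All 6 photosynthetic markers fell, with sums of 5690 to 7674 CPM in ap2-12, 9974 to 12357 CPM in rAP2-VENUS and 9600 to 14761 CPM in WT. Of 3 phloem markers 2 fell (134 to 152 CPM in ap2-12, 177 to 199 CPM in rAP2-VENUS and 152 to 193 CPM in WT). Most of that sum is SMXL5, which was not called (mean 122 CPM in ap2-12 and 127 CPM in WT). SUC2 averaged 17.1 CPM in ap2-12 and 34.5 CPM in WT, and APL 5.36 and 8.03 CPM. Of 5 shoot apex markers 4 passed the filter and CLV3 did not. Among the 4, STM, LFY and AP1 fell and WUS was not called. The sum of all 5 was 126 to 145 CPM in ap2-12, 235 to 271 CPM in rAP2-VENUS and 257 to 312 CPM in WT. Of 4 tapetum markers 3 rose, MS1, A9 and ATA20 (197 to 477 CPM in ap2-12, 170 to 331 CPM in rAP2-VENUS and 106 to 206 CPM in WT). In rAP2-VENUS vs WT, FAMA was called higher (log2 0.90 ± 0.15 SE, edgeR adjusted p = 0.0159), a call lost in 5 of 8 omissions, and edgeR called no other of these markers. Blocking by replicate number also called AP1 lower (log2 -0.29, adjusted p = 0.0281) and CA1 higher (log2 0.36, adjusted p = 0.0203), and DESeq2 called 1 shoot apex and 1 xylem marker. Of all 18807 genes tested, the block called 424 and DESeq2 340 in that comparison. In ap2-12 vs WT, the calls of A9 and CAB1 were lost in 5 of 8 omissions, SUC2 in 4, APL in 3, and HT1 and PSAD-1 in 2. Of 4 root markers only SHR passed the filter and it was not called, RHD6 had 0 reads in ap2-12 and in WT, and CASP1 had 0 reads in WT. The part of these tissues in the levels of HAI2, ABI2, ABI1 and PP2CA was not tested.

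The genes whose profile over the 12 libraries was nearest to each called phosphatase were found among 7074 genes by the root mean square (RMS) difference of log2 CPM, each gene centred on its own mean. For ABI1 they were PTAC6 (RMS difference 0.0727), NF-YB3 (0.0776) and FAD6 (0.0805). For ABI2 they were GDCH (0.184), MYB16 (0.195) and PnsB2 (0.202). For HAI2 they were LHCB4.3 (0.17), ELI3-1 (0.199) and LrgB (0.214), and for PP2CA they were PAP29 (0.0646), FATB (0.0696) and APE1 (0.0721). Among the phosphatases themselves, HAB1 and HAB2 were nearest (0.0955), ABI1 and PP2CA differed by 0.199, ABI2 and HAI2 by 0.323, and HAI1 and HAI2 were farthest apart (0.834). These values describe 12 libraries that share genotypes and replicate numbers, and no test was made on them.

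The annotated exons of the clade share no 50-base word with each other or with the rest of the genome. All 50-base words of the annotated exons of each of the 9 genes occur only once in the genome (100% of 1348 to 2446 words per gene), whereas the reads were 150 bases long. ABI1 overlaps MEK1 (AT4G26070), a MAP kinase kinase gene on the other strand, by 22 bases, and no source used here says whether reads were counted by strand. MEK1 averaged 12.1 ± 3.15 CPM in ap2-12 and 14.7 ± 2.49 CPM in WT (SD, n = 4 each) and was not called (edgeR adjusted p = 0.365). No other gene of the clade overlaps an annotated gene.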

How the data were processed

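The authors deposited raw read counts per gene for 12 libraries, with a header that names build TAIR10. The submitters' processing notes list the aligner TopHat2, the counter HTSeq and SAMtools, with no version. Per the labels, RNA came from RNeasy columns with DNase, and a HiSeq3000 read the TruSeq libraries from a single end over 150 bp. The labels call the 4 replicates of a genotype biological. Of 27416 rows, 26719 were found in the RefSeq table that gave symbols, and no row lacked a gene name. Replicate libraries differed beyond sampling noise (chi-square per degree of freedom 5.19 to 47.9).

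The 9 members and all gene lists were chosen with earlier results of these data known, so no list is independent evidence.

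Counts were filtered with filterByExpr (18807 genes), scaled by TMM and fitted in 1 edgeR 4.0.16 quasi-likelihood model over 12 libraries with genotype as the only term, in R 4.3.3. Adjusted p-values are Benjamini-Hochberg over all genes kept, within a comparison. The SE is the log2 fold change over the square root of F. Differences between replicate numbers were tested as a term added to genotype. Alternatives were the replicate block, RLE and upper-quartile scaling, DESeq2 1.42.0, limma-voom (limma 3.58.1), no filter, at least 1 CPM in 4 libraries, only the 8 libraries compared, and leaving out each library. The scripts were tested on simulated counts.

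Same-numbered libraries were checked for shared deviations from their group means. The correlations across genes for replicates 1 to 4 were 0.626, 0.227, 0.198 and 0.429 for rAP2-VENUS and WT. All were over 0.1, so there the numbers, which come from the labels, were taken to pair the libraries. They were not for the other comparisons. The main fit still used genotype only in every comparison, and pairing entered only through the replicate block. In rAP2-VENUS vs WT that block called 424 genes, against 118 in the main fit, and 0 of the 7 measured clade A genes.

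Named genes are all members, AP2, the called genes of each list (at most 4, by adjusted p) and the 3 nearest profiles (mean of at least 5 CPM, prior count 2) of each called member. Genes named as not called, and those called only under the block, were added after their values were seen. An interval of a count ratio is exact at 95% and covers counting error only. Promoters and gene models came from RefSeq TAIR10.1, in which all 9 members matched.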

Additional observations from a re-analysis of the deposited data

Results flagged for a closer look

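ABI2 in rAP2-VENUS replicate 2 had 9.68 CPM, while the other rAP2-VENUS libraries had 13.5 to 14.1 CPM. It stood apart because its gap to the nearest other library was 0.866 of the range of the 4, above Dixon's 95% critical value for 4 samples. Chance marks about 1 in 20 groups, and 21 groups (7 genes in 3 genotypes) were examined. Even this library lay above all 4 ap2-12 libraries, 4.96 to 6.04 CPM. Without it the ABI2 log2 fold change of rAP2-VENUS against WT was 0.086 (edgeR adjusted p = 0.981). Why this library was lower was not tested.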

How the results depend on the processing

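The number of clade A genes called stayed at 4 in ap2-12 vs WT, 0 in rAP2-VENUS vs WT and 4 in rAP2-VENUS vs ap2-12 under all 8 settings other than the omission of a library. Omissions gave 3 to 4 in ap2-12 vs WT, where the single loss was PP2CA, and the same 0 and 4 in the other comparisons. Over all genes the counts moved more. With the replicate number as a block 5419 genes were called in ap2-12 vs WT (2866 without), 424 in rAP2-VENUS vs WT (118 without) and 6215 in rAP2-VENUS vs ap2-12 (3686 without), and the block changed no call of a member. DESeq2 called 340 genes in rAP2-VENUS vs WT, and omissions gave 55 to 108 there. The cause of these moves was not tested.

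Signs turned only for members that were not called. In rAP2-VENUS vs WT, the log2 fold change of HAI1 was 0.00917 with the block and 0.00285 with limma-voom, and over omissions the ranges were -0.00339 to 0.129 for ABI1, -0.108 to 0.086 for ABI2, -0.0122 to 0.0622 for HAB2, -0.171 to 0.173 for HAI1 and -0.00754 to 0.0994 for PP2CA. In ap2-12 vs WT, HAB2 was 0.00692 with upper-quartile scaling and -0.0356 to 0.0314 over omissions, and HAB1 was -0.00923 to 0.0841. In rAP2-VENUS vs ap2-12, HAB2 was -0.00771 to 0.0783. Of the pathway lists, ABA receptors in ap2-12 vs WT went to 2 called with only the 8 libraries compared, and ABA transcription factors to 4 with DESeq2, 3 with upper-quartile scaling, 2 with RLE or limma-voom and 5 with the block. In rAP2-VENUS vs ap2-12 the receptors went to 5 with DESeq2 and 6 with the block, and the SnRK2 kinases and the transcription factors to 5 each with the block. In ap2-12 vs WT same-numbered libraries correlated by 0.604, -0.0146, 0.47 and 0.389, so the numbers were not taken as pairs there. Depth limits HAI3 and AHG1, and 4 libraries a group limit small differences.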
